A study of Rattus norvegicus with 16 samples.

Results

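The genes described here are 40 cell cycle and DNA replication genes, chosen by name and measured in left ventricles of adult male Sprague-Dawley rats with an aortocaval fistula (ACF), a surgical opening between the abdominal aorta and the vena cava that loads the heart with volume. Each gene was read from the probe set whose annotation gives its symbol alone, and where several did, from the probe set with the highest mean over the 16 arrays. A probe set of this kind was present for 39 of the 40 genes, out of 14218 genes tested. Rrm2, a subunit of ribonucleotide reductase, was left out because its 2 probe sets also carry the symbol of a second gene. Ventricles were taken 8, 16 and 24 weeks after the ACF was made, with 4 arrays in each ACF group and 4 control arrays. ACF 8 weeks is the phase of compensated hypertrophy and ACF 16 weeks that of heart failure in the study. The control arrays are titled baseline, described as control and called sham in the series text. No time after surgery is given for them, so the same 4 arrays are the reference at all 3 times. Age and time since surgery therefore cannot be told apart from the ACF in comparisons with control. Between ACF times, age cannot be told apart from the time after the ACF. Descriptions of the ACF 24 weeks arrays read 24, 25, 26 and 27 weeks. The labels give the age of every group as adult and name no genetic change. Each array stands for 1 sample, and the RNA came from whole ventricle, so that a change in the number of cells of a type and a change in RNA per cell cannot be told apart.

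Cells that divide first raise D cyclins, which with Cdk4 start the release of E2F factors from the retinoblastoma protein, and then E cyclins with Cdk2, which carry the cell into DNA synthesis. The Mcm helicase, Pcna and the enzymes of nucleotide synthesis serve replication, and cyclin A, cyclin B, Cdk1, the Aurora kinases and the spindle and checkpoint proteins serve mitosis. Cip/Kip proteins bind and inhibit these kinases. Adult rat cardiomyocytes are known to divide rarely, while fibroblasts, endothelial cells and macrophages of the heart can divide.

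Values are log2 intensities after subtraction of each array's median over all probe sets, so 0 is the median of the array, and a difference of 1 is 2-fold. The 16 array medians fell at 2 levels before this subtraction, 5.92 to 5.96 on 7 arrays (1 of ACF 8 weeks, 2 of ACF 16 weeks, 4 of ACF 24 weeks) and 6.13 to 6.17 on 9 arrays (3 of ACF 8 weeks, 2 of ACF 16 weeks, 4 control). The lists of markers for cardiac cell types were used to check the labelled tissue. The mean of 13 ventricular cardiomyocyte markers was 7.24 to 7.72 over the 16 arrays, and none of them passed the test at any time. The mean of 3 atrial markers ranged from 0.13 to 5.60 over ACF arrays and from -0.18 to 4.15 over control arrays. It was highest on ACF 24 weeks replicate 3 (5.60), ACF 8 weeks replicate 2 (5.06) and control replicate 4 (4.15). Macrophage markers moved with the ACF groups. Of these 14 genes, 2, 13 and 4 rose at 8, 16 and 24 weeks, where 0.0563%, 9.09% and 0.907% of all genes passed in either direction. The mean of the macrophage markers was 1.88 to 2.20, 2.03 to 2.78 and 1.51 to 2.10 on the arrays of those groups, against 1.13 to 1.39 on control arrays. Of 11 fibroblast markers, 5 rose at 16 weeks and 2 at 24 weeks, and none passed at 8 weeks. Among 10 endothelial markers, 1 (Vwf) rose at 16 and at 24 weeks. Among 12 markers of T and natural killer cells, 1 fell at 16 weeks. Among 4 markers of B and plasma cells, 1 fell at 16 weeks and 1 at 24 weeks. The part of these cells in the values below was not tested.

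Very few of the 39 genes passed the test in any comparison. With limma and Benjamini-Hochberg adjustment over 14218 genes, 0 of 39 passed at 8 weeks, where 0.0563% of all genes did. At 16 weeks 2 of 39 passed, both higher, where 9.09% of all genes passed, 5.83% as higher and 3.26% as lower. These were Cdkn1a, a kinase inhibitor, and Aurkb, a mitotic kinase, and no member was lower. At 24 weeks 0 of 39 passed, where 0.907% of all genes did. Before adjustment 1, 7 and 8 members had a p under 0.05 at 8, 16 and 24 weeks, all as higher, where 4.59%, 14.1% and 8.8% of all genes did in that direction. The 2 of 39 members that passed at 16 weeks, both higher, were thus near the 5.83% of all genes that passed as higher. The median log2 difference of the members was 0.03, 0.09 and 0.11 at 8, 16 and 24 weeks, against -0.00, -0.00 and 0.00 over all genes tested. Differences were above 0 for 24, 27 and 28 of 39 members, where 49.1%, 49.6% and 50.1% of all genes were. All 4 arrays lay above the control range in 2, 4 and 7 of 39 members, against 3.43%, 10.1% and 4.82% of all genes, and in 0 members all 4 lay below it, against 2.73%, 6.32% and 4.46%. At 24 weeks every ACF array was at the lower level of the array medians and every control array at the higher. The group and the level therefore cannot be told apart in these counts at 24 weeks.

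In the fit without the level of the array median, the size of difference that these arrays allow was also small for most members. The 95% interval of the difference lay within 1.5-fold in both directions for 33, 26 and 27 of 39 members at 8, 16 and 24 weeks, with a median standard error of 0.14 on the log2 scale (0.09 to 0.32). For the remaining members a change beyond 1.5-fold was not excluded by the interval. The count at 24 weeks takes no account of the level of the array median, which cannot be told apart from the group there. With that level as a block the standard errors at 24 weeks were 0.13 to 0.44. Many of the probe sets were dim: 20 of 39 lay below the median of all probe sets. Among the 14218 genes tested, each by its brightest probe set, they ranged from Ccna2 at percentile 3.15 to Ccnd2 at percentile 96.4, with a median at percentile 32.1. Brightness depends on the probes as well as on the RNA, and no detection call was used here.

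**Figure D1:**
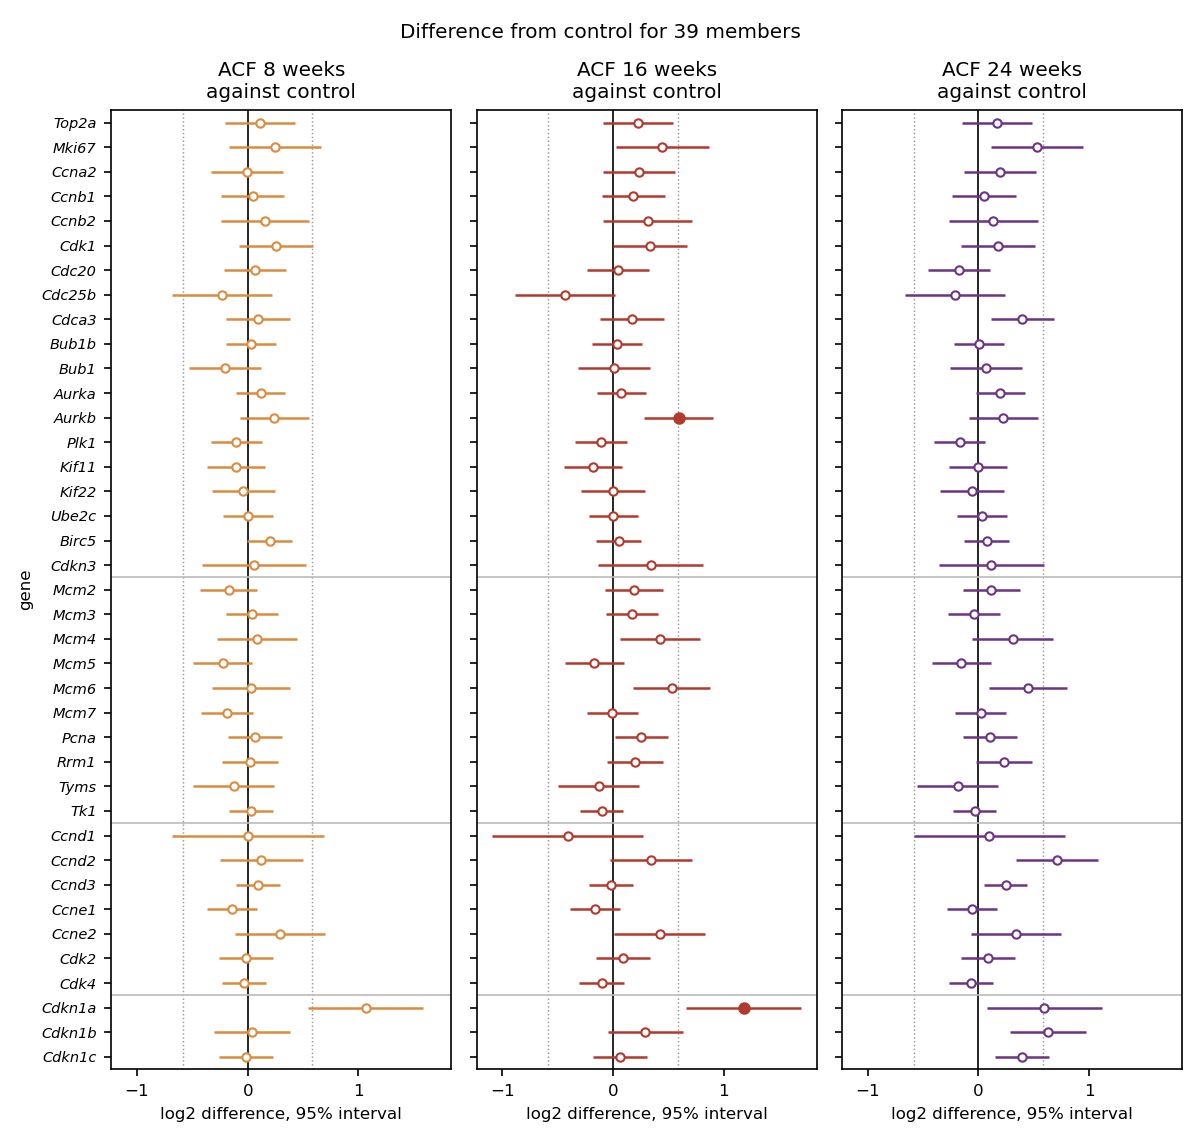
Log2 difference from control (x axis, points) with its 95% interval (lines) for 39 genes (y axis) at ACF 8, 16 and 24 weeks, 4 arrays a group. Filled points passed an adjusted p under 0.05, dotted lines mark 1.5-fold, and grey lines part the 4 roles. Only Aurkb and Cdkn1a at 16 weeks are filled.

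Cdkn1a, the Cip/Kip inhibitor that is a known target of p53, had the largest difference of the 39 genes at 8 and at 16 weeks. It read 3.54, 3.71, 3.39 and 3.32 at ACF 8 weeks, 3.09, 3.35, 4.24 and 3.74 at ACF 16 weeks and 2.77, 3.18, 3.54 and 2.58 at ACF 24 weeks, against 2.01, 2.17, 2.89 and 2.63 in control. All arrays of 8 and of 16 weeks lay above all control arrays, while at 24 weeks the 2 groups overlapped. The gene was upregulated 2.27-fold at 16 weeks (3.60 ± 0.50 in ACF 16 weeks and 2.42 ± 0.41 in control, SD, n = 4 each), a log2 difference of 1.18 with a standard error of 0.25 and limma adjusted p = 0.00749. It passed with each of the 16 arrays left out in turn (adjusted p 0.0062 to 0.0331), but not by the methods' unpaired test after adjustment (0.122). At 8 weeks the difference was 1.07 (standard error 0.25, 2.10-fold, limma adjusted p = 0.129), and at 24 weeks 0.59 (adjusted p = 0.237). The exact two-sided permutation p was 0.0286 at 8 and at 16 weeks, the smallest that 4 against 4 arrays can give, and 0.143 at 24 weeks. A second, dimmer Cdkn1a probe set gave 0.75, 1.08 and 0.07 at 8, 16 and 24 weeks, with an adjusted p over all probe sets of 0.00692 at 16 weeks. With the level of the array median as a block the differences were 0.93, 0.90 and 0.03, and the call at 16 weeks held (adjusted p = 0.0265). Among arrays at the higher level alone they were 0.99 at 8 weeks (adjusted p = 0.0652) and 0.79 at 16 weeks (adjusted p = 0.0364).

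The windows before the start sites of Cdkn1a, Mcm6 and Cdk1 are shown, as the inhibitor that rose, the replication gene with the lowest adjusted p and the kinase of mitosis. They are the 250 bases before the annotated start in RefSeq, build GRCr8, printed 5′ to 3′ on the strand of the gene. Capitals in Cdkn1a mark a match to the p53 half-site consensus, and capitals in the others mark, on either strand, the CCAAT box (ATTGG on the opposite strand), the cell cycle homology region (CHR), spelled TTTGAA, and E2F sites. An E2F site was taken as TTGGCGC in its best-known form, or else as the variant with the letters TTCCCGC, the variant that has TTGCCGC, or lastly the variant written as TTCGCGC.
Cdkn1a (chr20:7150682-7150931, plus strand): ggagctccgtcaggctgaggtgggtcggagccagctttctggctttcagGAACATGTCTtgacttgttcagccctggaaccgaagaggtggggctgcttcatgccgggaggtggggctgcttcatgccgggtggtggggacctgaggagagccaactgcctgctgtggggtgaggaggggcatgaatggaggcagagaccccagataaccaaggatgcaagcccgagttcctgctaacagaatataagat
Mcm6 (chr13:42404353-42404602, minus strand): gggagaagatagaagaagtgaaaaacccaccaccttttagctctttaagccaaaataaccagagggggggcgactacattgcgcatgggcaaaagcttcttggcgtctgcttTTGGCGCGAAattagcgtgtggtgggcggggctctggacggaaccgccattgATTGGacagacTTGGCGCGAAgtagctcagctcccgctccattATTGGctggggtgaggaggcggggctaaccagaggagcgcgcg
Cdk1 (chr20:19265043-19265292, plus strand): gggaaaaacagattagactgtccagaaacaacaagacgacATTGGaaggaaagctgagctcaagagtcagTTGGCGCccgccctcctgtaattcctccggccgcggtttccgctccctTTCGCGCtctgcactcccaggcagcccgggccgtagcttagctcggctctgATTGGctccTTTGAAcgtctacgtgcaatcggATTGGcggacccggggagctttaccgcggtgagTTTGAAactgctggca
In Mcm6 each of the 2 capital runs that begin TTGGCGC holds 2 overlapping E2F spellings, 1 on each strand. Such windows were given for 31 of the 40 genes, and not for Ccna2, Aurkb, Ube2c, Mcm4, Rrm2, Ccnd1, Ccnd2, Ccne2 and Cdkn1c. CCAAT was present in 13 of 16 windows of mitosis genes and 6 of 9 of replication genes, against 34.3% of 27457 windows in the table. TTTGAA was present in 8 of 16 and 1 of 9, against 16% of all windows. An E2F spelling was present in 3 of 16 and 6 of 9, against 7.97% of all windows. Over the 11734 windows of genes tested here the shares were 35.1%, 10.9% and 12.6% for these motifs in the same order, so the 18.8% of mitosis windows with an E2F spelling lay nearer to the share of the tested genes. The p53 half-site was found in 2 of 31 members (Cdkn1a and Bub1b) and in 6.56% of all windows (5.88% for genes tested). A match is a description of the letters and not of binding.

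The other Cip/Kip inhibitors, Cdkn1b and Cdkn1c, also restrain the cyclin-dependent kinases of G1. Cdkn1b read 3.56, 4.10, 3.73 and 3.79 at ACF 8 weeks, 3.60, 3.84, 4.27 and 4.47 at ACF 16 weeks and 4.24, 4.34, 4.67 and 4.27 at ACF 24 weeks, against 3.70, 3.81, 3.76 and 3.74 in control. All 24-week arrays lay above control, with a difference of 0.63 (standard error 0.16, limma adjusted p = 0.069). These values moved with the level of the array median: the 7 arrays at the lower level read 4.10 to 4.67 and the 9 at the higher level 3.56 to 3.84, whatever their group. Cdkn1b was the only member whose 2 levels did not overlap, where 0.352% of all genes did not. The fitted difference between the levels passed for 0 of 14218 genes. For Cdkn1b the lower level was 0.55 above the higher (standard error 0.11, limma adjusted p = 0.158). With the level as a block the differences were -0.10, 0.02 and 0.08 at 8, 16 and 24 weeks, and its second probe set differed from control by 0.07, 0.09 and 0.12. Because every 24-week array was at the lower level and every control array at the higher, level and group cannot be told apart between those 2 groups, and the block takes its estimate from the 8- and 16-week arrays.

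Cdkn1c read 1.51, 1.70, 1.78 and 1.47 at ACF 8 weeks, 1.72, 1.80, 1.59 and 1.67 at ACF 16 weeks and 2.07, 2.01, 2.34 and 1.67 at ACF 24 weeks, against 1.61, 1.66, 1.59 and 1.65 in control. Its 24-week arrays lay above control, the lowest of them (replicate 4) by a small margin. The difference at 24 weeks was 0.39 (standard error 0.12, limma adjusted p = 0.109), and 0.42 with the level as a block. Without ACF 24 weeks replicate 4 it was 0.51, with adjusted p = 0.0167. At 8 and 16 weeks it differed from control by -0.01 and 0.06.

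**Figure D2:**
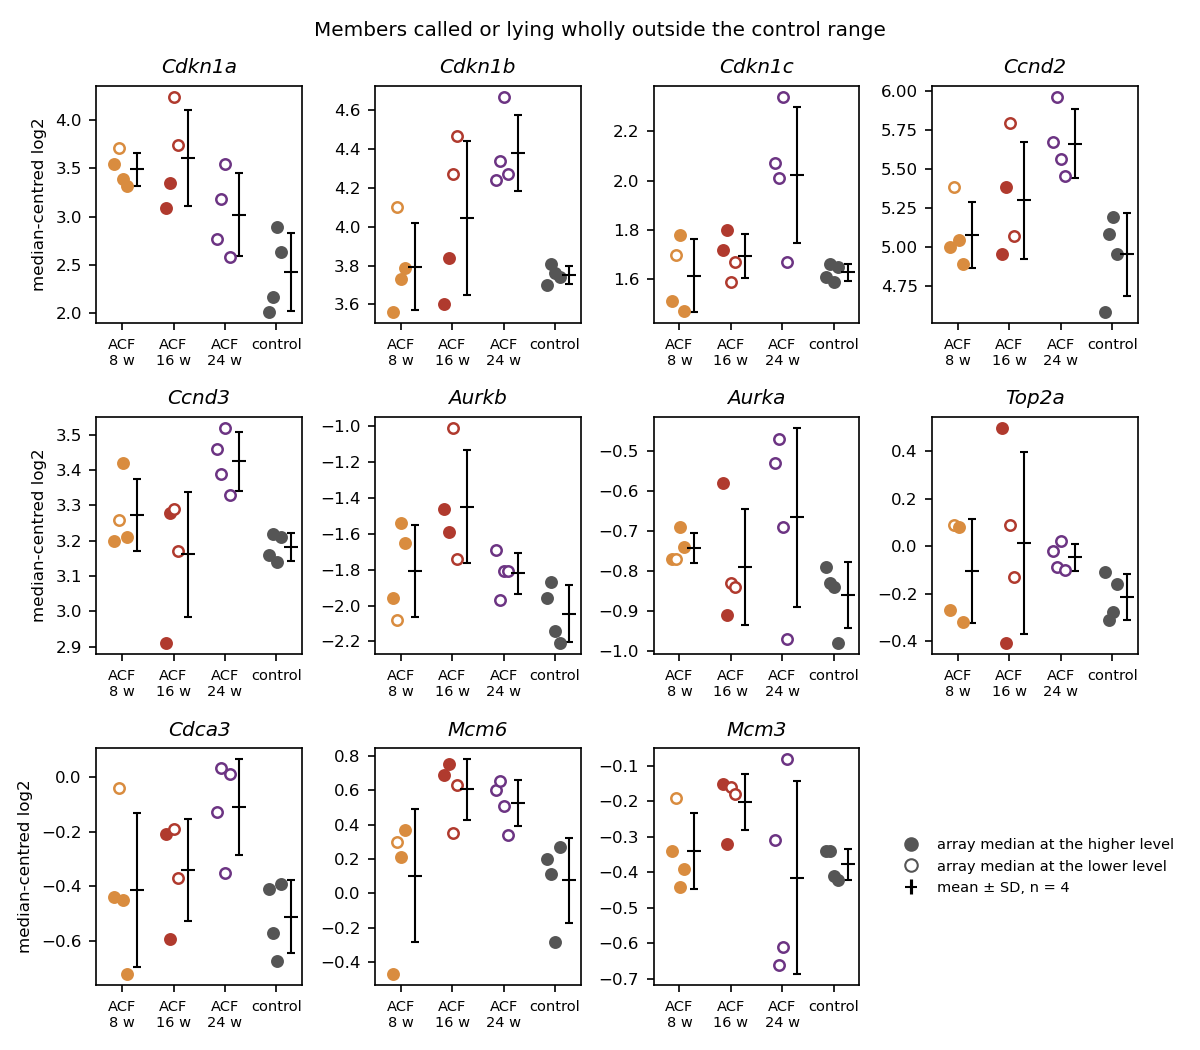
Median-centred log2 value (y axis) on each array for the 11 genes that passed or whose 4 arrays at an ACF time all lay above control, by group (x axis, w = weeks). Filled circles are arrays whose median was at the higher level and open circles those at the lower level, and bars are mean ± SD (n = 4). Open circles of Cdkn1b lie between 4.10 and 4.67 and filled ones between 3.56 and 3.84, in every group.

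D cyclins, which bind Cdk4 early in G1, were measured by bright probe sets and gave mixed results. Ccnd2 read 5.0, 5.38, 5.04 and 4.89 at ACF 8 weeks, 4.95, 5.38, 5.79 and 5.07 at ACF 16 weeks and 5.67, 5.96, 5.56 and 5.45 at ACF 24 weeks, against 4.58, 5.08, 5.19 and 4.95 in control. All its 24-week arrays exceeded control, by 0.71 on average (standard error 0.18, 1.63-fold, limma adjusted p = 0.0611). It passed without ACF 16 weeks replicate 1 (adjusted p = 0.0472), without ACF 16 weeks replicate 3 (0.0381) or without ACF 24 weeks replicate 4 (0.035), and the difference was 0.38 with the level of the array median as a block. Ccnd3 read 3.46, 3.39, 3.52 and 3.33 at ACF 24 weeks, against 3.16, 3.22, 3.14 and 3.21 in control, again without overlap, a difference of 0.25 (standard error 0.09, limma adjusted p = 0.194). With the level as a block it was 0.17, and the lowest value over the alternatives was 0.04. At 8 and 16 weeks Ccnd3 differed by 0.09 and -0.02.

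Ccnd1 turned on 1 array. It read 3.98, 4.28, 3.93 and 3.90 at ACF 8 weeks, 2.21, 4.18, 3.87 and 4.19 at ACF 16 weeks and 3.75, 4.43, 4.56 and 3.74 at ACF 24 weeks, against 3.85, 4.18, 4.00 and 4.06 in control. The mean difference at 16 weeks was -0.41 (standard error 0.32, limma adjusted p = 0.477), and 0.06 without ACF 16 weeks replicate 1. Its other probe sets gave -0.24 to -0.20 at 16 weeks. Of the cyclins and kinases of the G1 to S transition, Ccne1, Cdk2 and Cdk4 differed from control by at most 0.16 in size at each time, and Ccne2 by 0.29, 0.42 and 0.34 at 8, 16 and 24 weeks (limma adjusted p 0.805, 0.191 and 0.404). The second Ccne2 probe set gave 0.18, 0.11 and 0.26, and the second Cdk2 probe set -0.09, -0.05 and -0.07. In all, 0 of these 7 genes passed at any time, and their median difference was 0.00, -0.02 and 0.10.

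Of 19 mitosis genes, 1 was upregulated at 16 weeks and none downregulated, a share close to the 5.83% of all genes that rose. Aurkb, the kinase of the chromosomal passenger complex, read -1.96, -2.08, -1.54 and -1.65 at ACF 8 weeks, -1.46, -1.59, -1.01 and -1.74 at ACF 16 weeks and -1.69, -1.97, -1.81 and -1.81 at ACF 24 weeks, against -1.96, -1.87, -2.14 and -2.21 in control. The 4 arrays of 16 weeks all lay above control and those of the other ACF times overlapped it. The difference at 16 weeks was 0.59 (standard error 0.15, 1.51-fold, limma adjusted p = 0.019, exact permutation p = 0.0286). The call was lost without control replicate 3 (adjusted p = 0.0573), control replicate 4 (0.0509) or ACF 16 weeks replicate 3 (0.0507, difference 0.45), and on values without centring (difference 0.48, adjusted p = 0.0694), and by the methods' unpaired test after adjustment (0.133). With the level as a block it was 0.63 (adjusted p = 0.0262). At 8 and 24 weeks the difference was 0.24 and 0.23. The probe set is dim, at percentile 11.2 of the 14218 genes tested.

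Aurka, the Aurora kinase of the spindle poles, read -0.77, -0.77, -0.69 and -0.74 at ACF 8 weeks, against -0.79, -0.83, -0.84 and -0.98 in control. These arrays did not overlap, but the difference was 0.12 (standard error 0.10, limma adjusted p = 0.883). At 24 weeks 2 other mitosis genes lay wholly above control. Top2a, the DNA topoisomerase that untangles replicated chromosomes, read -0.02, -0.09, 0.02 and -0.10 at ACF 24 weeks, against -0.11, -0.31, -0.28 and -0.16 in control (difference 0.17, adjusted p = 0.624), and its difference was -0.04 on values without centring. Cdca3, which triggers mitotic entry, read -0.13, 0.03, -0.35 and 0.01 at ACF 24 weeks, against -0.41, -0.57, -0.67 and -0.39 in control (difference 0.40, standard error 0.14, adjusted p = 0.152), and its difference with the level as a block was 0.12.

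Mki67, the proliferation antigen of dividing cells, read -1.44, -0.68, -0.96 and -1.49 at ACF 8 weeks, -0.51, -1.26, -1.0 and -1.0 at ACF 16 weeks and -1.18, -1.04, -0.50 and -0.72 at ACF 24 weeks, against -1.14, -1.48, -1.28 and -1.65 in control. Every ACF group overlapped the control range, and the differences were 0.24, 0.45 and 0.53 (standard error 0.20, limma adjusted p 0.861, 0.173 and 0.188). Cdk1, the kinase that drives entry into mitosis, differed by 0.25, 0.33 and 0.18, and its partner Ccnb2 by 0.16, 0.31 and 0.14, with overlap at each time. Cdc25b, a phosphatase that activates Cdk1, gave the lowest differences among the mitosis genes, at -0.23, -0.44 and -0.21 (limma adjusted p 0.895, 0.224 and 0.672). The other cyclins of mitosis, Ccna2 and Ccnb1, differed by -0.01 and 0.05 at 8 weeks, by 0.23 and 0.18 at 16 weeks and by 0.19 and 0.05 at 24 weeks. The second Ccnb1 probe set gave -0.01, 0.09 and -0.14.

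None of the remaining mitosis genes passed the test. Bub1 and Bub1b, kinases of the spindle checkpoint, differed by -0.20 and 0.03 at 8 weeks, by 0.01 and 0.04 at 16 weeks and by 0.07 and 0.00 at 24 weeks. Cdc20 and Ube2c, which act with the anaphase-promoting complex, gave 0.07 and -0.00 at 8 weeks, 0.05 and 0.00 at 16 weeks and -0.18 and 0.04 at 24 weeks. The 4 other probe sets of Cdc20 lay on both sides of 0 at each time (-0.10 to 0.18 at 24 weeks), and so no direction is given for it. Plk1, a kinase of mitotic entry and exit, differed by -0.10, -0.11 and -0.17. Birc5, a partner of Aurkb in the chromosomal passenger complex, differed by 0.20 at 8 weeks, with a 95% interval just across 0 (0.40 at its upper end), and by 0.05 and 0.08 at the later times, where Aurkb differed by 0.59 and 0.23. Cdkn3, a phosphatase that acts on cyclin-dependent kinases, differed by 0.06, 0.34 and 0.12 with a standard error of 0.22, and Kif22, a chromosome motor, by -0.04, -0.00 and -0.06. Kif11, a spindle motor, differed by -0.11, -0.18 and -0.01. The second probe set of Kif11 went the other way at 8 and 16 weeks (0.32 and 0.33), and so none is given for Kif11 either.

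Mitosis genes were not evenly spread over the 4 arrays of a group, in control and ACF groups alike. Control replicate 1 was the highest of its group in 10 of 19 and control replicate 4 the lowest in 11, and ACF 8 weeks replicate 4 was the lowest in 11. No share over all genes was taken for these arrays, so their counts are not read as a trait of the mitosis genes. Within ACF 16 weeks, replicate 1 was the highest of the 4 in 12 of 19 mitosis genes and in 6 of 10 replication genes, where it was the highest in 25.4% of all genes. Replicate 2 was the lowest in 12 of 19 mitosis genes, and no share over all genes was taken for it. Over the 39 members replicate 1 was the highest in 19 and the lowest in 7, where it was the lowest in 31.6% of all genes. Ccnb2 read 0.37 on that array, against -0.71 to -0.35 on the other arrays of its group, and Top2a 0.50 against -0.41 to 0.09. Both genes belong to the late part of the cycle, the first as a cyclin and the second as a topoisomerase. Ccna2 read -2.01 against -2.79 to -2.67. The same array had the highest mean of the macrophage markers, 2.78, where replicates 2, 3 and 4 had 2.55, 2.03 and 2.22. It also had the lowest mean of the cardiomyocyte markers, 7.24 against 7.55 to 7.65 on the others of its group, and of the endothelial markers, 3.23 against 3.61 to 3.66. Replicate 2, second in the macrophage markers, was the lowest array for most mitosis genes. The part of these cells in the values was not tested.

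**Figure D3:**
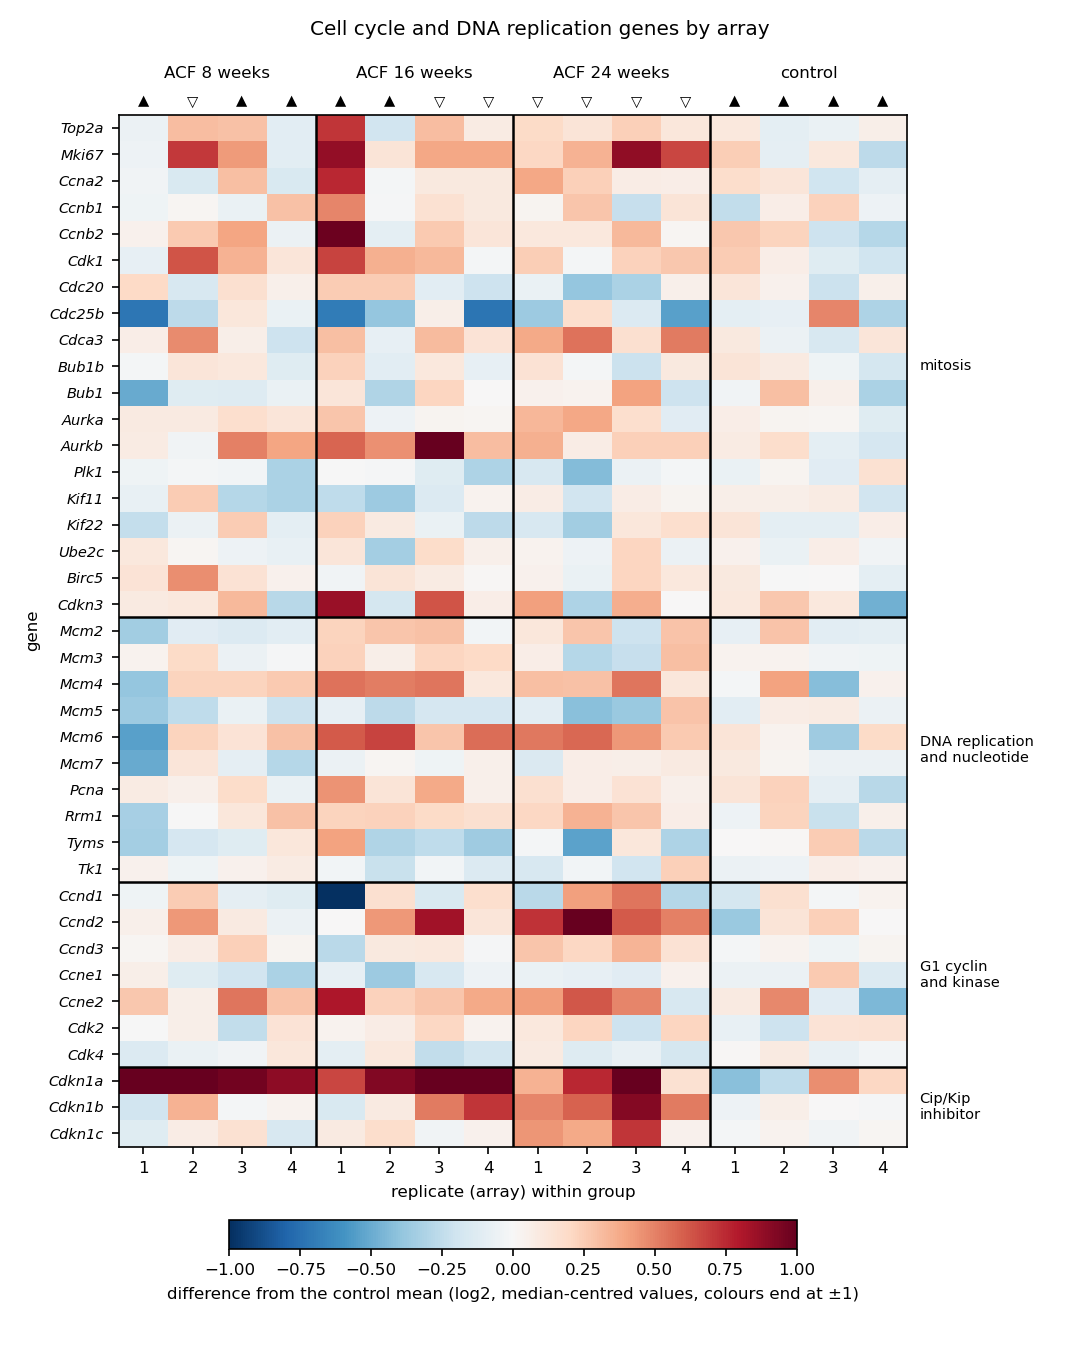
Difference of each array (columns, grouped, replicate number below) from the control mean (colour, log2, ending at 1 in either direction) for 39 genes (rows, by role). Filled triangles mark arrays whose median was at the higher level, open triangles the lower level. Red marks Cdkn1a on all 8- and 16-week arrays, and many mitosis genes on ACF 16 weeks replicate 1.

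None of the 10 genes of replication and nucleotide synthesis passed at any time. Mcm6, a subunit of the replicative helicase, came closest. It read -0.47, 0.30, 0.21 and 0.37 at ACF 8 weeks, 0.69, 0.75, 0.35 and 0.63 at ACF 16 weeks and 0.60, 0.65, 0.51 and 0.34 at ACF 24 weeks, against 0.20, 0.11, -0.28 and 0.27 in control. All arrays of 16 and of 24 weeks lay above control, and those of 8 weeks overlapped it. The difference was 0.53 at 16 weeks (standard error 0.17, 1.44-fold, limma adjusted p = 0.0548) and 0.45 at 24 weeks (adjusted p = 0.183), and with the level as a block 0.54 and 0.47. At 16 weeks it passed without ACF 8 weeks replicate 1 (adjusted p = 0.0161) or without ACF 16 weeks replicate 3 (0.0423), and after cyclic loess (0.0441).

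The other helicase subunits gave smaller differences than Mcm6 at 16 weeks. Mcm3 read -0.15, -0.32, -0.16 and -0.18 at ACF 16 weeks, against -0.34, -0.34, -0.41 and -0.42 in control, without overlap, a difference of 0.17 (standard error 0.11, limma adjusted p = 0.373). At 24 weeks its difference was -0.04. Mcm4 differed by 0.42 at 16 weeks (standard error 0.17, adjusted p = 0.138), with overlap, and Mcm2, Mcm5 and Mcm7 by 0.19, -0.17 and -0.01. Pcna, the sliding clamp of the DNA polymerases, differed by 0.06, 0.26 and 0.11 at 8, 16 and 24 weeks, and Rrm1, the large subunit of ribonucleotide reductase, by 0.02, 0.20 and 0.23. Tyms and Tk1, enzymes of thymidylate supply, gave -0.13 and 0.03 at 8 weeks, -0.13 and -0.10 at 16 weeks and -0.19 and -0.04 at 24 weeks. The other Tk1 probe sets gave -0.14 to -0.12 at 8 weeks, -0.24 to -0.10 at 16 weeks and -0.25 to -0.12 at 24 weeks. The median over the 10 genes was 0.02, 0.18 and 0.06, against -0.00, -0.00 and 0.00 over all genes.

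Comparisons between successive ACF times gave no member that passed, and no gene at all did (0% of 14218). Unadjusted p was under 0.05 for 3 members between 16 and 8 weeks and for 4 between 24 and 16 weeks, where 8.69% and 9% of all genes had one. Mcm2 was the single member whose 16-week arrays (0.78 to 1.10) all lay above its 8-week arrays (0.46 to 0.70), with a difference of 0.36 (limma adjusted p = 0.406), where 2.71% of all genes did so. Ccnd3 was the single member whose 24-week arrays (3.33 to 3.52) all lay above its 16-week arrays (2.91 to 3.29), a difference of 0.26 (adjusted p = 0.468), where 1.29% of all genes did so. Cdkn1a at 24 weeks was 0.59 below its value at 16 weeks (95% interval -1.11 to -0.07, limma adjusted p = 0.516), and Aurkb 0.37 below (adjusted p = 0.493). The 95% interval of Aurkb was -0.68 to -0.06. A second Cdkn1a probe set gave -1.01 between these times (standard error 0.22, limma adjusted p over all probe sets 0.204). After adjustment, the lower values of Cdkn1a and Aurkb at 24 weeks were thus not shown to differ from those at 16 weeks.

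Genes of the same processes outside the 40 were taken from 4 lists. Of 48 other mitosis genes 1 rose at 16 weeks, of 47 other replication genes 3 rose and 1 fell, of 20 other G1 regulators 2 rose, and of 17 p53 target genes 1 fell, where 5.83% of all genes rose and 3.26% fell. The counts of the replication genes and G1 regulators were thus near those shares. None of these passed at 8 weeks, and at 24 weeks 1 did, where 0.0563% and 0.907% of all genes passed. Their medians at 16 weeks were 0.07, 0.05, 0.09 and 0.13. Among replication genes Gmnn, the inhibitor of replication licensing, read -0.16, -0.98, -1.06 and -1.30 at ACF 16 weeks, against -1.57, -1.63, -1.57 and -1.79 in control, a difference of 0.76 (standard error 0.18, limma adjusted p = 0.0129). Orc6, a subunit of the origin recognition complex, read -0.09, -0.33, -0.34 and -0.75 at ACF 16 weeks, against -0.83, -0.93, -0.91 and -1.04 in control, a difference of 0.55 (standard error 0.12, adjusted p = 0.0108). Both stood highest on ACF 16 weeks replicate 1, and both passed with any of the 16 arrays left out. Both calls were lost without centring (Gmnn 0.65, adjusted p = 0.0548, and Orc6 0.43, adjusted p = 0.0584) and by the methods' unpaired test after adjustment (0.164 and 0.112). At 24 weeks they differed from control by 0.20 and 0.07.

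Ect2, a factor of cytokinesis (0.60), and Prim1, the small subunit of DNA primase (0.47), also rose at 16 weeks, and Cdc45, a part of the replicative helicase, fell (-0.36). Each of these 3 calls was lost when certain single arrays were left out, 6 of 16 for Ect2 (the 4 control arrays and ACF 16 weeks replicates 1 and 3), 9 of 16 for Prim1 and 7 of 16 for Cdc45. Any of ACF 16 weeks replicates 1 and 3 and control replicates 2, 3 and 4 sufficed for all 3. The further arrays were control replicate 1, ACF 8 weeks replicate 3, ACF 16 weeks replicate 4 and ACF 24 weeks replicate 3 for Prim1, and ACF 8 weeks replicate 3 and ACF 24 weeks replicate 1 for Cdc45. Ect2 also missed the threshold without centring (adjusted p = 0.0847), Prim1 with the array level as a block (0.139) and Cdc45 with that block (0.0769). The mean of the probe sets of Cdc45 differed by -0.14 (limma adjusted p = 0.287).

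Myc, the transcription factor that promotes growth and entry into the cycle, had larger differences at 16 and 24 weeks than any of the 39 genes. It read 1.64, 2.01, 0.89 and 0.89 at ACF 8 weeks, 1.56, 1.71, 3.07 and 1.12 at ACF 16 weeks and 1.59, 2.22, 2.14 and 1.81 at ACF 24 weeks, against 0.32, 0.08, 0.19 and 0.89 in control. All arrays of 16 and of 24 weeks lay above control, with differences of 1.49 (standard error 0.34, limma adjusted p = 0.0117) and 1.56 (adjusted p = 0.0398). The call at 16 weeks held with any array left out, but not by the methods' unpaired test after adjustment (0.145), and that at 24 weeks was lost without any of control replicates 1, 2 and 3 or ACF 24 weeks replicates 1, 2 and 3 (adjusted p up to 0.144), and with the level of the array median as a block (0.93, adjusted p = 0.412). Btg1, an antiproliferative factor, rose by 0.36 at 16 weeks, a call lost without any control array, ACF 8 weeks replicate 3 or ACF 16 weeks replicates 1, 2 and 3 (adjusted p up to 0.115), or with the array level as a block (0.081).

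Of the p53 targets beside Cdkn1a, 0 of 17 rose at any time. With 5.83% of all genes higher at 16 weeks, a list of this size does not stand apart by that count. The gene that fell, Perp, which encodes a desmosomal membrane protein, read 2.50, 3.22, 2.92 and 2.86 at ACF 16 weeks, against 3.94, 3.94, 3.72 and 3.99 in control, a difference of -1.02 (standard error 0.21, limma adjusted p = 0.00669). It differed by -0.73 and -0.76 at 8 and 24 weeks (adjusted p 0.28 and 0.083). The median of the list was 0.08, 0.13 and 0.07 at 8, 16 and 24 weeks.

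**Figure D4:**
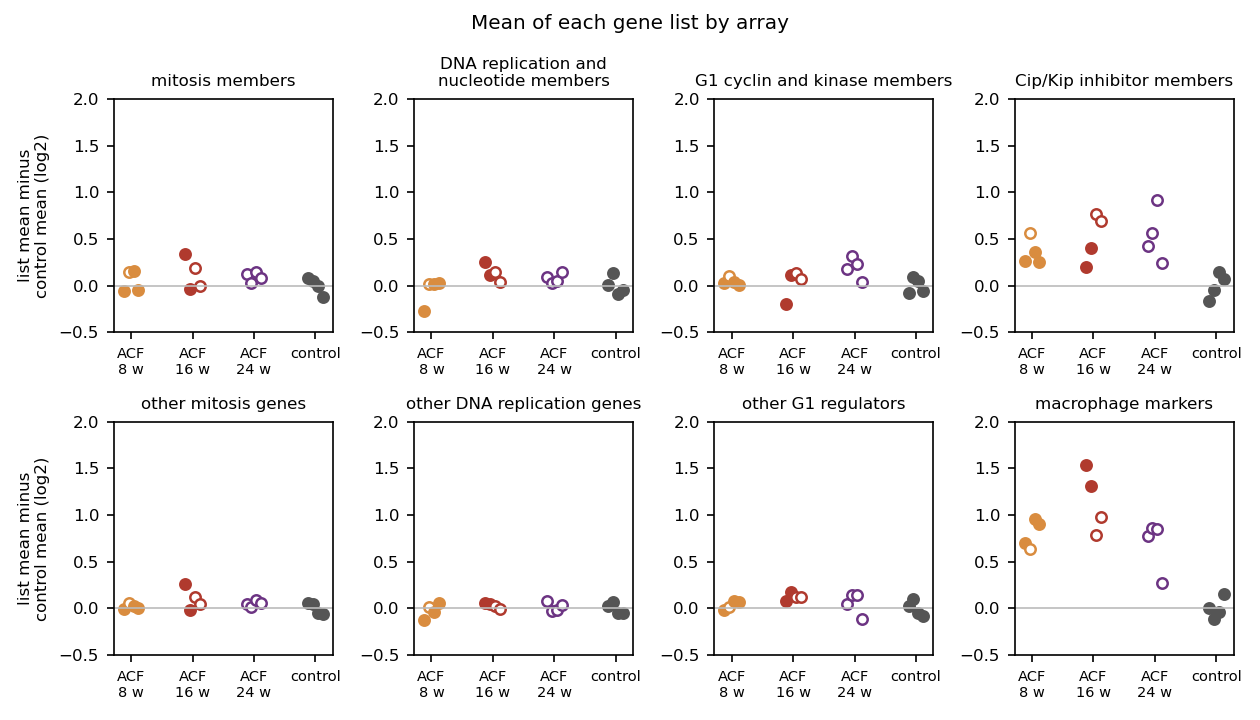
Mean log2 value of each gene list on each array minus the mean of the 4 control arrays (y axis, same scale in all panels) by group (x axis, w = weeks). Filled circles are arrays whose median was at the higher level and open circles the lower level. Lists of mitosis and replication genes lie close to the control arrays in every group, while all 12 ACF arrays exceed control for the macrophage markers (list mean at least 1.51 against at most 1.39). All 12 also exceed control for the mean of the 3 Cip/Kip members (at least 2.80 against at most 2.75), but not for each member. At 8 weeks Cdkn1a differed by 1.07, and Cdkn1b and Cdkn1c by 0.04 and -0.01. At 24 weeks, with the array level as a block, Cdkn1a, Cdkn1b and Cdkn1c differed by 0.03, 0.08 and 0.42. No share over all genes was taken for such list means.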

How the data were processed

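RNA of 16 rat left ventricles was hybridised to Affymetrix arrays. The deposited values are log2 expression after RMA in Affymetrix Expression Console 1.2, per the labels' processing notes, with 31099 probe sets. Their identifiers are of another Affymetrix rat design than the array type that the study's methods name. Whether all arrays were summarised in a single RMA run is not given in the sources used here. GEO's platform annotation named 20832 probe sets by 1 symbol, 436 by several and 9831 by none, and 57 of the probe sets were controls. Values were centred on each array's median, 1 probe set was kept per gene, and 14218 genes were fitted with limma 3.58.1 in R 4.3.3 (1 mean per group, all 16 arrays), with Benjamini-Hochberg adjustment and a threshold of 0.05. Intervals are 95% limits of that fit. Single values were also compared by permuting 4 and 4 arrays in every way (exact, two-sided). The code was tested on simulated data. Nothing says how the samples of a group relate, so p-values measure the spread between these samples. The number of arrays limits the precision.

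The genes, lists and tests were chosen with earlier results of these data known. Members were described in full where they passed in a comparison with control or where all 4 arrays of an ACF time lay outside the control range, and other lists by up to 4 of their genes that passed, those with the lowest adjusted p. Ccnd1 and Mki67 were described in full after their values were seen. Alternatives were no centring, cyclic loess, averaging over probe sets, a filter on dim probe sets, trend and robust options, array weights, only the arrays compared, the methods' unpaired test and fold rule, the array level and the replicate number as blocks, and each array left out. Promoter windows were taken from RefSeq (GRCr8) by symbol. Figures were drawn with matplotlib 3.10.9.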

Additional observations from a re-analysis of the deposited data

Results flagged for a closer look

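On 12 of 156 sets of 4 arrays (39 genes in 4 groups) a single array stood apart from the others by Dixon's criterion, where chance flags about 1 in 20 sets. Of these, 4 were at ACF 16 weeks. Ccna2 read -2.01 and Tyms -0.09 on replicate 1, above the others of the group (-2.79 to -2.67 and -0.85 to -0.75), while Ccnd1 read 2.21 on the same array, below the others (3.87 to 4.19). Mcm4 read 0.03 on ACF 16 weeks replicate 4, against 0.44 to 0.47 on the others.

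At ACF 8 weeks replicate 1 was the low array for Bub1 (-2.09, others -1.71 to -1.65), Mcm2 (0.46, others 0.67 to 0.70) and Mcm4 (-0.46, others 0.15 to 0.19), and replicate 4 for Plk1 (0.82, others 1.10 to 1.12). At ACF 24 weeks replicate 2 was low for Cdk1 (-0.58, others -0.33 to -0.29) and replicate 1 for Mcm7 (2.11, others 2.31 to 2.34). Among control arrays Mcm2 read 1.09 on replicate 2 (others 0.70 to 0.72) and Kif11 -1.04 on replicate 4 (others -0.79 to -0.76).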

How the results depend on the processing

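Over 29 differences of single genes and 757 alternatives, 666 kept their direction and their side of the threshold, 70 fell short of it, 19 passed it and 2 changed direction. Those 2 were Ccnd1 at 16 weeks without ACF 16 weeks replicate 1 (0.06, and -0.60 to 0.06 over all arrays left out) and Top2a at 24 weeks without centring (-0.04). The cause was not tested.

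The number of members that passed at 8 weeks was 1 (Cdkn1a) by the methods' unpaired test or by limma with a fold above 1.5 and an unadjusted p under 0.05, with only the 8 arrays compared, or with array weights. At 16 weeks it was 1 without centring (Cdkn1a), 0 by the methods' unpaired test after adjustment, 1 in the upper 50% of genes by brightness, which holds only 11 of the members, and 1 to 3 with arrays left out. At 24 weeks it was 1 without centring (Cdkn1b), 2 by the methods' unpaired test and 3 by limma under the fold rule, 1 with only the 8 arrays compared, 3 with array weights (Ccnd2, Cdkn1b and Cdkn1c), and 0 to 3 with arrays left out. Between 24 and 16 weeks it was 1 (Cdkn1a, lower) by limma under the fold rule. At 16 weeks Mcm6 was added with only the 8 arrays compared (limma adjusted p = 0.0436) and after cyclic loess (0.0441). Under the fold rule Aurkb and Cdkn1a passed at 16 weeks, by the methods' unpaired test and by limma. Samples that share a replicate number did not deviate together (correlations -0.32 to 0.24). With the replicate number as a block, 0, 2 and 1 members passed at 8, 16 and 24 weeks, Ccnd2 being added.

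Counts over all genes moved more: 1292 at 16 weeks became 220 by the methods' unpaired test and 646 without control replicate 1, and 129 at 24 weeks became 1675 without centring, 829 with array weights, 558 without ACF 24 weeks replicate 4 and 2 with the array level as a block. Comparisons with the 24-week arrays could not be run within the higher level, which holds none of them. Dim probe sets limit what can be read of most mitosis genes.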
